A study of Mus musculus with 23 samples.

Results

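The comparison described here set testes from mice fed 44% fat against testes from mice fed 10% fat over all 23 libraries of the series, 12 against 11, with strain as a covariate, and asked which genes and pathways stood on the same side of 0 in each of 3 strains. All mice were wild-type males. They came from C57BL/6J, the strain of the mouse reference genome, CAST/EiJ, a wild-derived strain, and NZO/HlLtJ, a strain known for polygenic obesity. From 6 to 16 weeks of age they ate a control diet of 10% fat + fiber or a high-fat, high-sugar diet of 44% fat + fiber. C57BL/6J gave 4 libraries on each diet, CAST/EiJ gave 3 on 10% fat and 4 on 44% fat, and NZO/HlLtJ gave 4 on each. No untreated group outside these diets was in the design, so 10% fat is the baseline throughout. The labels do not say that the libraries of a group came from separate animals, so p-values measure only the spread between these libraries, which may be technical.

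The testis makes sperm in its tubules and testosterone in the Leydig cells between them. Both jobs draw on cholesterol: Leydig cells turn it into steroid hormone, and germ cells and Sertoli cells make it from acetyl-CoA by way of mevalonate, farnesyl diphosphate, squalene and lanosterol. When sterols in a cell run low, the transcription factor SREBF2 raises the genes of this route and of cholesterol uptake together, and when sterols are plentiful INSIG proteins hold SREBF2 in the endoplasmic reticulum. High-fat feeding is known mainly for its action on liver and adipose tissue.

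No gene passed the test of diet over all strains. In edgeR's quasi-likelihood test with strain and diet as terms, 0 of 22873 genes were higher and 0 were lower on 44% fat at a Benjamini-Hochberg adjusted p under 0.05 (0% in each direction). At an unadjusted p under 0.05 there were 775 genes (3.39%), a smaller share than chance alone gives at that p. Of these, 339 were higher (1.48%) and 436 lower (1.91%). DESeq2 also called 0 genes, with 791 at an unadjusted p under 0.05, and limma on the authors' deposited log2 values called 0, with 859. The verbs of change are therefore not used below for the comparison over all strains, and each value is given as measured.

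The effects of diet were small beside those of strain. Over 17256 genes with a mean of at least 1 CPM (counts of a gene per 1000000 counts of its library), strain held 90.4% of the variance of log2 CPM, diet 0.439%, strain by diet 0.972% and the spread within groups 8.17%. Per degree of freedom, diet held 0.912 times the variance found within groups, and strain 94.0 times. The median gene had a diet difference of 0.032 in size on the log2 scale with a standard error (SE) of 0.052. The 95% interval of the difference lay wholly within 1.1-fold either way for 46.7% of these genes and within 1.5-fold for 98.9%, so a change of 1.5-fold or more common to the strains was outside the interval for nearly all of them.

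**Figure D1:**
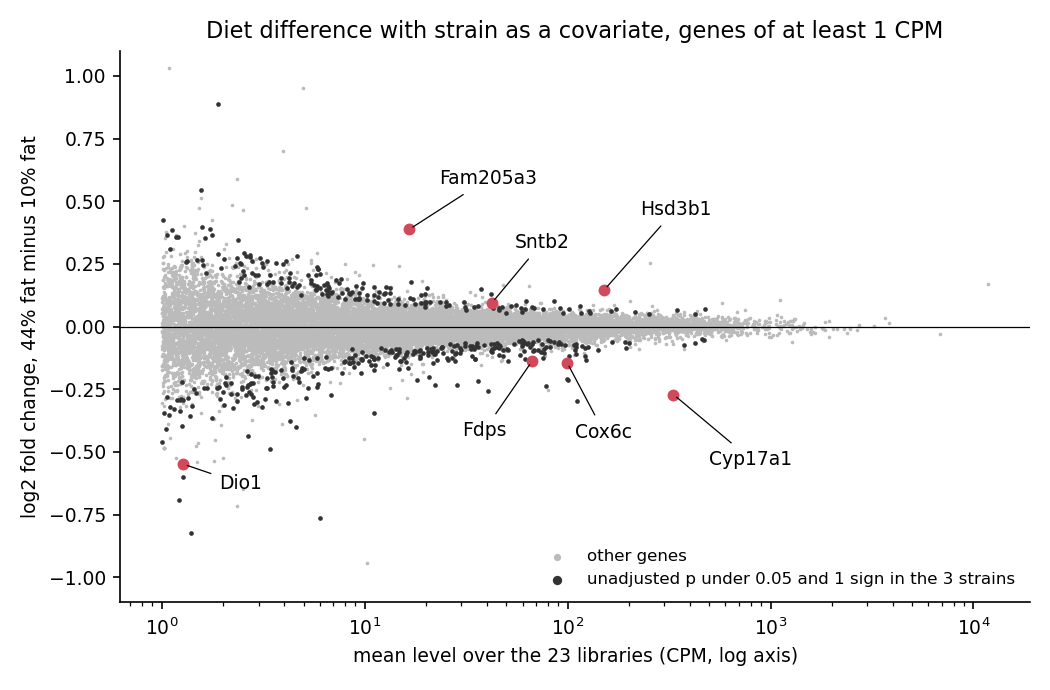
Diet difference over all strains (log2, 44% fat minus 10% fat, vertical axis) against mean level (CPM, log axis) for genes of at least 1 CPM, with genes of an unadjusted p under 0.05 and 1 sign in each strain in black and 7 named genes in red. The cloud is centred on 0, with Fdps, Cox6c, Cyp17a1 and Dio1 below it and Fam205a3, Sntb2 and Hsd3b1 above it, none of which passed the test.

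Direction was shared by few genes. The fitted difference was above 0 in every strain for 2327 of 22873 genes (10.2%) and below 0 in every strain for 2646 (11.6%), and 17900 were mixed. Across genes, the diet differences of C57BL/6J and CAST/EiJ had a Pearson correlation of −0.11, those of C57BL/6J and NZO/HlLtJ 0.03, and those of CAST/EiJ and NZO/HlLtJ −0.03, over 17256 genes that are not independent replicates. The Spearman correlations of the same pairs were −0.02, 0.04 and −0.16, so the pair with the lowest value depended on the measure. The same sign was shared by 48.8%, 52.1% and 40.6% of genes in those pairs. No gene kept the diets from overlapping in every strain (0 of 22873, 0%). The 2-degree-of-freedom test of strain by diet in edgeR called 0 genes, with 1121 at an unadjusted p under 0.05 (4.9%), and DESeq2 called 8.

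Of 41 gene lists, cholesterol synthesis was the one whose members most often stood on 1 side in every strain. Of 25 genes listed for cholesterol synthesis and uptake, 24 passed the filter on low counts and were tested. None was called by edgeR, DESeq2 or limma. The fitted difference was below 0 in every strain for 17 of the 24 (70.8%, beside 11.6% of all genes), above 0 in every strain for 0 (beside 10.2%) and mixed for 7. With 1 library left out, the number below 0 in every strain ran from 12 to 19. It was 12 without replicate 3 of CAST/EiJ on 10% fat. At an unadjusted p under 0.05, 11 were lower (45.8%, beside 1.91%) and 0 higher. The median difference was −0.10 over all strains, −0.093 for C57BL/6J, −0.15 for CAST/EiJ and −0.062 for NZO/HlLtJ, beside a median near 0 for all genes.

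Fdps had the smallest p of the genes that the naming rule chose. It encodes farnesyl diphosphate synthase, which joins isoprene units into the farnesyl diphosphate that feeds sterols, dolichol and protein prenylation, and it lies on the minus strand of chromosome 3 at 89093588-89101959 (GRCm38, the authors' annotation). In C57BL/6J its level was 67.7, 64.0, 64.1 and 63.1 CPM on 10% fat and 59.1, 55.1, 57.8 and 59.1 CPM on 44% fat. In CAST/EiJ it was 56.5, 64.0 and 56.0 CPM on 10% fat and 53.7, 56.2, 53.8 and 54.4 CPM on 44% fat. In NZO/HlLtJ it was 80.3, 78.6, 88.7 and 94.0 CPM on 10% fat and 76.6, 77.6, 77.5 and 79.3 CPM on 44% fat. The 44% fat libraries lay below all 10% fat libraries in C57BL/6J, and the diets overlapped by 1 library in each of the other strains. The difference was −0.14 on the log2 scale (SE 0.03, unadjusted p 8.39e-05, adjusted p 0.619 in edgeR), made up of −0.16 for C57BL/6J, −0.11 for CAST/EiJ and −0.14 for NZO/HlLtJ.

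The enzymes were spread along the route from acetyl-CoA to cholesterol. Acat2, which joins acetyl groups into acetoacetyl-CoA, had a difference of −0.16, and Hmgcs1, which makes HMG-CoA, −0.075. Idi1, the isomerase that makes dimethylallyl diphosphate, had −0.097. Among the enzymes that close and trim the sterol rings, Lss (lanosterol synthase) had −0.14, Cyp51 (lanosterol demethylase) −0.07, Msmo1 (methylsterol oxidase) −0.23, Hsd17b7 (a sterol ketone reductase) −0.18, Sc5d (lathosterol desaturase) −0.21 and Dhcr7 (which makes cholesterol from 7-dehydrocholesterol) −0.20. Each of these had an unadjusted p under 0.05, from 0.00634 for Dhcr7 to 0.0427 for Hsd17b7, and a difference below 0 in each strain.

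A few members of the list lay near 0. Sqle, which makes squalene epoxide, had −0.033, Fdft1, the squalene synthase, −0.021, Pmvk, the phosphomevalonate kinase, 0.0058, and Srebf2 itself −0.013. Sqle ran from 116 to 132 CPM in C57BL/6J, from 147 to 168 CPM in CAST/EiJ and from 123 to 137 CPM in NZO/HlLtJ, and the diets overlapped in each. Stard4, a sterol carrier, had −0.044. Others had an unadjusted p of 0.05 or more at differences of similar size, with Tm7sf2 at −0.16, Insig1 at −0.15, Mvd at −0.14, Mvk at −0.12, Ebp at −0.11 and Nsdhl at −0.062. Without replicate 3 of CAST/EiJ on 10% fat, Msmo1 had −0.13, Hsd17b7 −0.099, Idi1 −0.06, Hmgcs1 −0.039, Insig1 −0.062 and Stard4 −0.0095, each less than its full value by over 1.5 times. Without replicate 4 of NZO/HlLtJ on 10% fat, Nsdhl had −0.022. Differences within the list thus ran from near 0, at Pmvk and Srebf2 among others, to −0.23 at Msmo1.

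**Figure D2:**
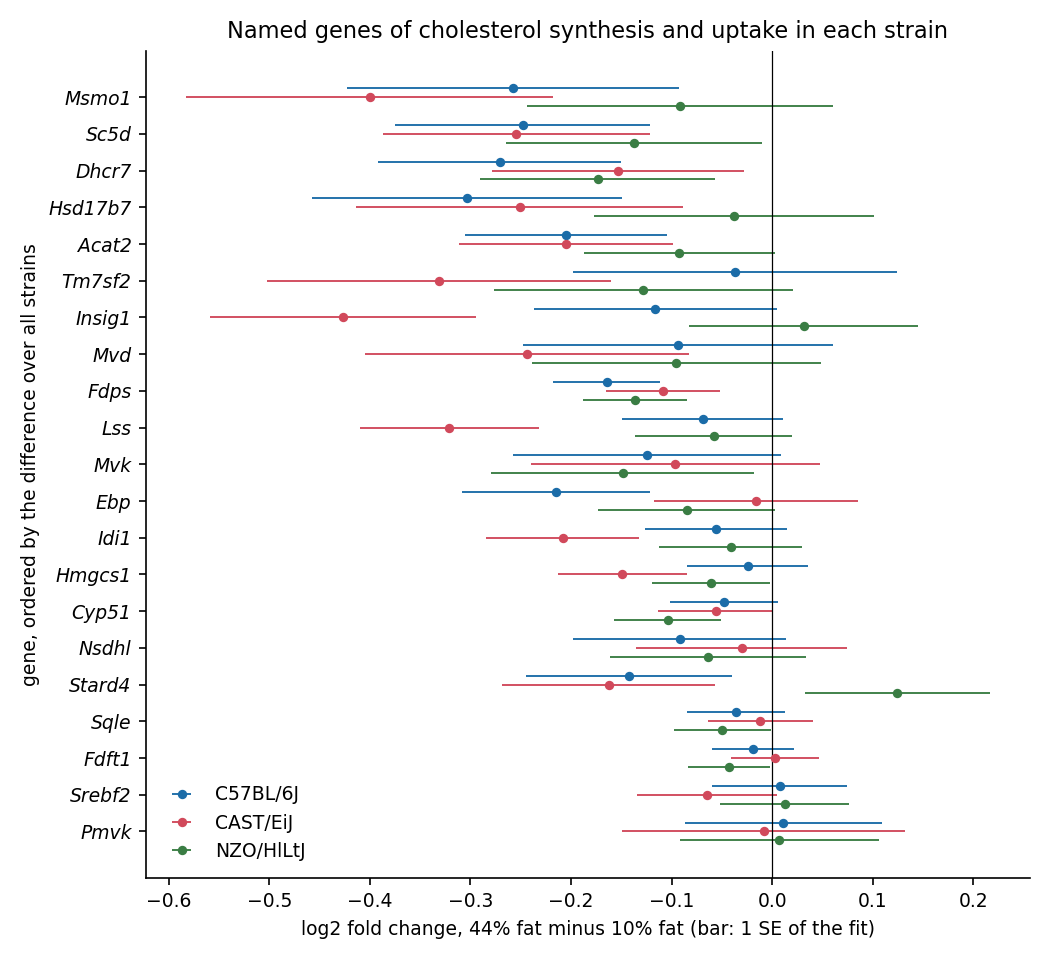
Diet difference (log2, 44% fat minus 10% fat, horizontal axis) of the named genes of the cholesterol synthesis and uptake list, with 1 point and a bar of 1 SE for each strain. Most points lie left of 0, and Pmvk, Srebf2 and Fdft1 lie close to 0.

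The list level of single libraries overlapped between diets in each strain. Taken as the mean log2 CPM of the 24 genes minus the mean of the strain's 10% fat libraries, the level in C57BL/6J was −0.09, −0.18, −0.11 and −0.05 on 44% fat, against 10% fat libraries that ran from −0.08 to 0.07. In CAST/EiJ it was −0.15, −0.15, −0.11 and −0.14 on 44% fat, and the 3 libraries on 10% fat were spread from −0.19 to 0.20. In NZO/HlLtJ it was −0.04, −0.03, −0.06 and −0.08 on 44% fat, and the 10% fat libraries formed a pair near −0.13 and a pair at 0.16 and 0.11. The diets overlapped in each strain, and in CAST/EiJ and NZO/HlLtJ the 44% fat libraries spanned a narrower range than the 10% fat libraries, a few of which were high.

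**Figure D3:**
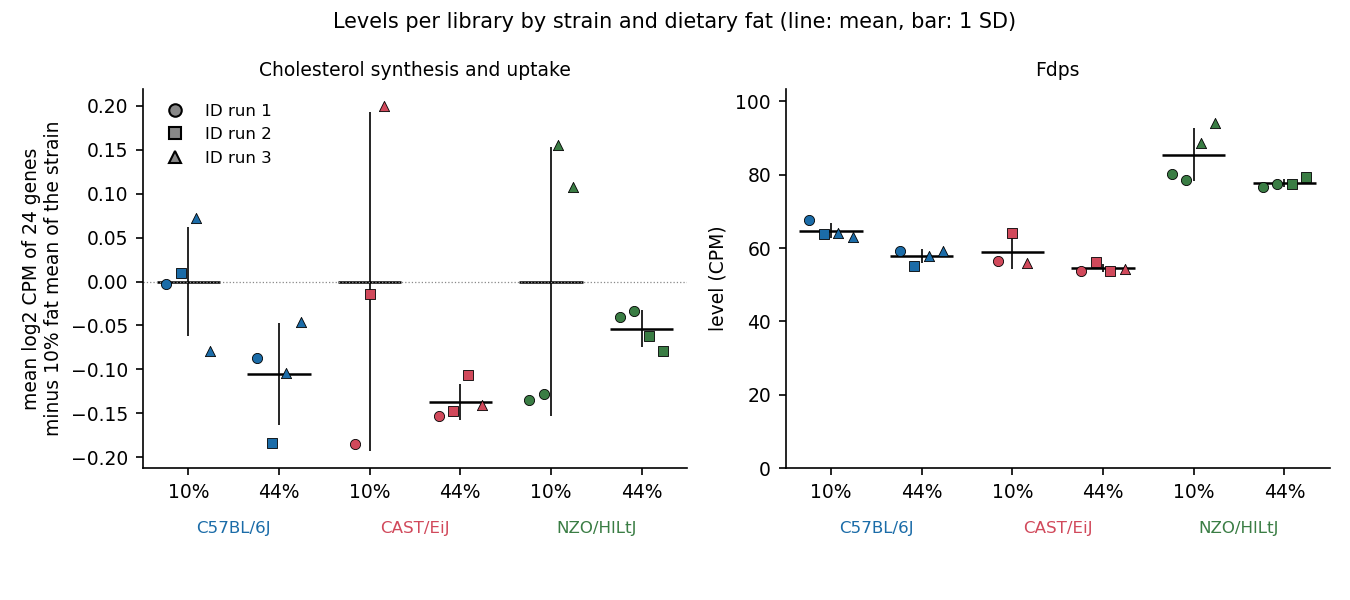
Level of the cholesterol list (left, mean log2 CPM of 24 genes minus the mean of the same strain's 10% fat libraries) and of Fdps (right, CPM) in each library by strain and diet, with the mean as a line, 1 SD as a bar, and shapes for 3 runs of title numbers described in the text. For the list, the 44% fat libraries lie below 0 in each strain, and the highest libraries are on 10% fat, at 0.20 in CAST/EiJ and 0.16 in NZO/HlLtJ.

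The numbers in the library titles fall into 3 runs, of 8, 7 and 8 libraries, which are given here because values moved with them. No label says what the runs are. The 4 NZO/HlLtJ libraries on 10% fat are in runs 1 and 3 and those on 44% fat in runs 1 and 2. Within runs, NZO/HlLtJ thus adds to a diet difference only in run 1. The NZO/HlLtJ 10% fat pair with list levels near −0.13 is in run 1, and the pair at 0.16 and 0.11 is in run 3. In run 1 the NZO/HlLtJ list levels were near −0.13 on 10% fat and −0.04 and −0.03 on 44% fat. In the same run they were −0.19 on 10% fat and −0.15 on 44% fat in CAST/EiJ, and −0.003 and −0.09 in C57BL/6J. The median of the cholesterol list was 0.023 within run 1, −0.12 within run 2 and −0.12 within run 3. With run as a covariate the median was −0.09, and 6 of its 24 genes were lower at an unadjusted p under 0.05 in edgeR. Leaving out 1 library at a time kept the median between −0.12 and −0.09, while the number of genes lower at that p ran from 6 to 15: it was 7 without replicate 3 of C57BL/6J, replicate 3 of CAST/EiJ or replicate 4 of NZO/HlLtJ on 10% fat, and 6 without replicate 3 of NZO/HlLtJ on 10% fat. Those 4 libraries are all in run 3. Over all genes, those at that p in either direction numbered 775 with all libraries and 646 to 949 with 1 library left out. A difference below 0 in each of the 3 runs was found for 8 of the 24 genes (33.3%, beside 9.61% of all genes), among them Acat2, Idi1, Fdps, Lss, Cyp51, Ebp and Sc5d, and above 0 in each run for 0 (beside 9.99%). Fdps had −0.089, −0.22 and −0.093 in the 3 runs. Whether the runs have a part in the list's values was not tested beyond these figures.

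Promoter sequences of the list share a feature. It was counted over all matched genes of this known route whatever their diet difference, so it says nothing about diet. CCAAT, read on either strand, is the box bound by NF-Y, a factor known to act beside SREBF2. It was present in the 250 bases before the RefSeq start (GRCm38.p6) of 16 of the 17 matched genes (94.1%), against 10133 of 27025 genes with such a window (37.5%). It was present in 7 of 12 matched genes of steroid synthesis and 10 of 28 for ribosomal proteins. The motif TCACNCCAC, a form of the sterol regulatory element, was before 1 of the 17 genes, Hmgcs1, against 331 of the 27025 genes (1.22%). A match is a description of these letters, and a window without one says nothing about binding. Fdft1, Fdps, Sqle and Stard4 were among those not matched. The windows of 3 enzymes are shown to let the repeated box be seen: Hmgcs1 (chr13:119690101-119690350, plus strand) at the start of the route, Idi1 (chr13:8885356-8885605, plus strand) before farnesyl diphosphate, and Hsd17b7 (chr1:169969206-169969455, minus strand) among the sterol ring enzymes. Each reads 5′ to 3′ along the gene's strand, and capitals mark CCAAT or its reverse ATTGG and, in Hmgcs1, the TCACNCCAC match.
Hmgcs1: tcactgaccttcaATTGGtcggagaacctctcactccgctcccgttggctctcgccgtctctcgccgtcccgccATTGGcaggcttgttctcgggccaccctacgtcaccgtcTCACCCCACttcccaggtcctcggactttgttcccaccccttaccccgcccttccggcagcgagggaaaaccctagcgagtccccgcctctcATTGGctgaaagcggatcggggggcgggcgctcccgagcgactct
Idi1: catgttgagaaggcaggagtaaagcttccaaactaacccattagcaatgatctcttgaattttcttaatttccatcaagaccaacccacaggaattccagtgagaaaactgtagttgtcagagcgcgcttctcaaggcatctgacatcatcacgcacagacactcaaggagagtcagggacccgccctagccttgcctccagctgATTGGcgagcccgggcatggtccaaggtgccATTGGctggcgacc
Hsd17b7: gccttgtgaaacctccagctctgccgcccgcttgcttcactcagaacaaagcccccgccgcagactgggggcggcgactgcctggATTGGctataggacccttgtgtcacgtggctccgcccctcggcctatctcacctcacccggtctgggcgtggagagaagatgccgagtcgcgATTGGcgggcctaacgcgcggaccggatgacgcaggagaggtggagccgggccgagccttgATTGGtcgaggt
The matched box stands 3 times in the Hmgcs1 window, 2 times in that of Idi1 and 3 times in that of Hsd17b7, always as ATTGG on the gene's strand. The diet differences of the 3 genes were −0.075, −0.097 and −0.18, and their relation to the box was not tested.

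Steroid hormone synthesis, the step after cholesterol, gave a smaller and less even picture. Of 18 genes listed, 17 were tested, none was called, and the median was −0.048 over all strains, −0.098 for C57BL/6J, −0.10 for CAST/EiJ and −0.03 for NZO/HlLtJ. The mean log2 CPM of the 17 genes, less the mean of the strain's 10% fat libraries, did not follow the median in CAST/EiJ. It was 0.06, 0.07, 0.10 and −0.12 there on 44% fat, against −0.08 to 0.05 on 10% fat. In C57BL/6J it was 0.01, −0.27, −0.16 and −0.03 against −0.23 to 0.12. In NZO/HlLtJ it was −0.04, −0.06, −0.02 and −0.25 against −0.14 to 0.17. The difference was below 0 in each strain for 7 (41.2%, beside 11.6%) and above 0 for 2 (11.8%, beside 10.2%). At an unadjusted p under 0.05, 3 were lower (17.6%, beside 1.91%) and 1 was higher (5.88%, beside 1.48%). In whole testis, fewer cells of a type and less RNA per cell cannot be told apart.

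Cyp11a1, the side-chain cleavage enzyme that makes pregnenolone from cholesterol, and Cyp17a1, the hydroxylase and lyase that leads to androgens, were the lower members with the smallest p. Cyp17a1 (chromosome 19, 46667165-46672974, minus strand) stood at 315, 341, 344 and 284 CPM on 10% fat and 260, 186, 288 and 268 CPM on 44% fat in C57BL/6J. It stood at 134, 214 and 200 CPM against 169, 153, 170 and 123 CPM in CAST/EiJ, and at 465, 487, 618 and 676 CPM against 555, 484, 491 and 423 CPM in NZO/HlLtJ. The diets overlapped in each strain, and the difference was −0.27 (SE 0.08, unadjusted p 0.00152). Cyp11a1 stood at 125, 126, 122 and 116 CPM on 10% fat and 103, 77.7, 100 and 106 CPM on 44% fat in C57BL/6J, with no overlap. It stood at 138, 181 and 175 CPM against 157, 138, 169 and 112 CPM in CAST/EiJ, and at 58.8, 70.7, 104 and 113 CPM against 95.4, 53.8, 63 and 60.7 CPM in NZO/HlLtJ. These overlapped, and the difference over all strains was −0.30 (SE 0.09, unadjusted p 0.00352).

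The other members were uneven in size and sign. Hsd3b1, a hydroxysteroid dehydrogenase of the adrenal and gonad, had 0.15 (SE 0.05), with 68.2, 55.5 and 61.3 CPM on 10% fat and 72.5, 68.9, 72.2 and 74.8 CPM on 44% fat in CAST/EiJ, and overlapping diets in C57BL/6J and NZO/HlLtJ. Its near copy Hsd3b6 had −0.26 (SE 0.11), with 5.62 to 7.25 CPM on 10% fat and 3.01 to 4.68 CPM on 44% fat in NZO/HlLtJ, and overlapping diets in C57BL/6J and CAST/EiJ. Reads shared between these copies could be split differently by another way of counting, so their opposite signs are uncertain. Star, which carries cholesterol into the mitochondrion, had −0.25 (SE 0.15, unadjusted p 0.103), and −0.13 without replicate 3 of NZO/HlLtJ on 10% fat. Lhcgr, the luteinising hormone receptor, had −0.093, Tspo −0.14, Scarb1, the lipoprotein receptor, −0.077, Hsd17b3, the last enzyme before testosterone, −0.048, and the regulator Nr5a1 0.057. Insl3, a hormone of mature Leydig cells, had −0.00205 (SE 0.09). The list's median was −0.027 without replicate 2 of C57BL/6J on 44% fat and −0.075 without replicate 2 of NZO/HlLtJ on 10% fat.

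**Figure D4:**
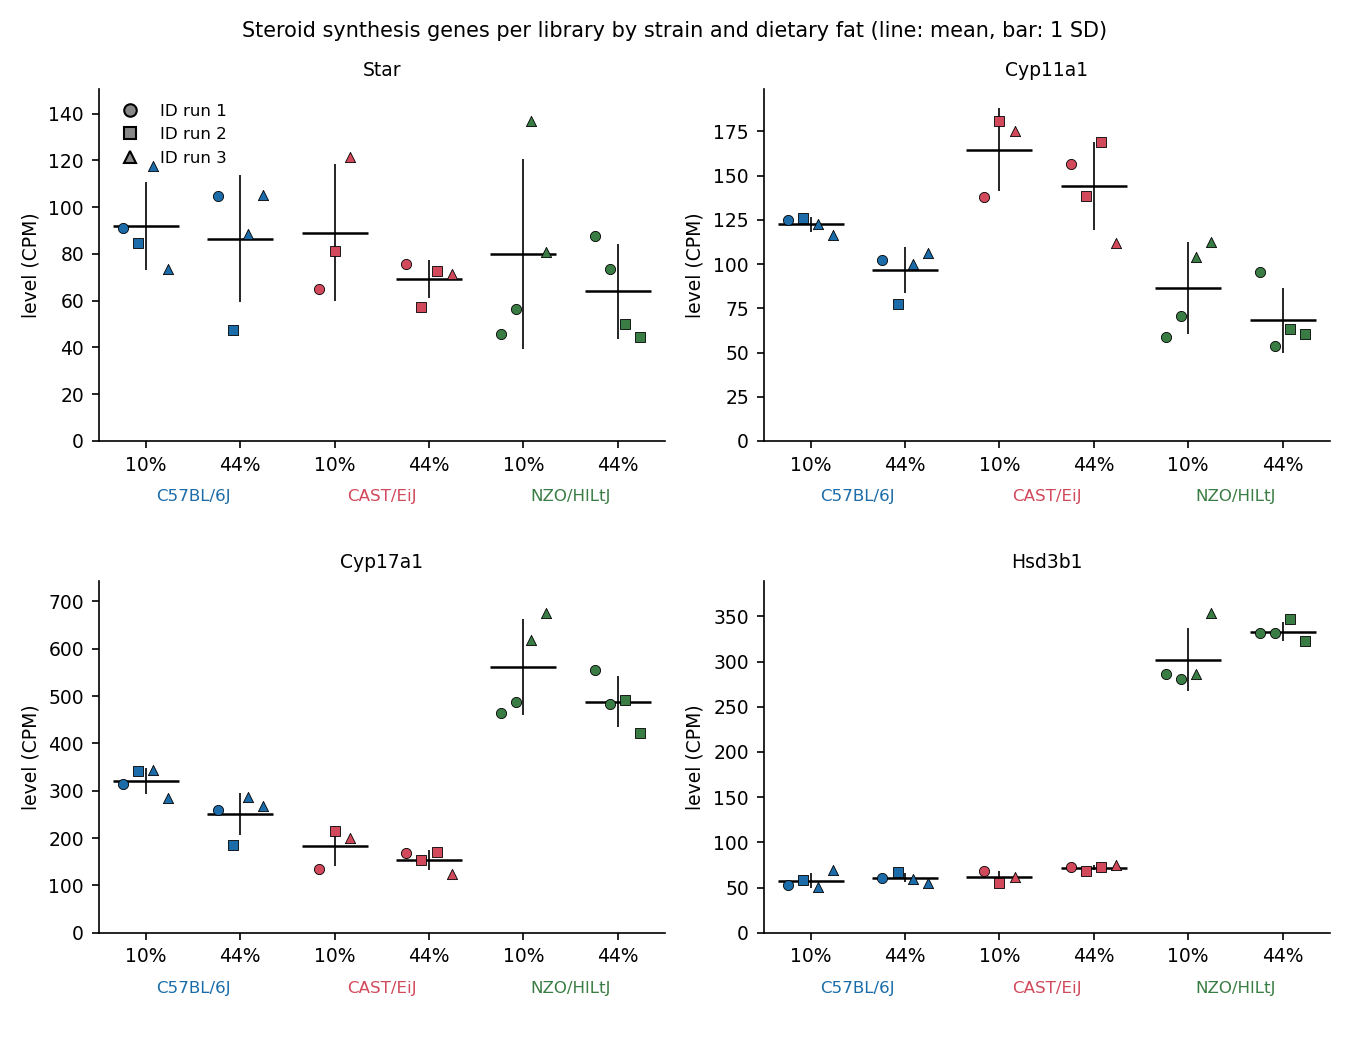
Level (CPM) of Star, Cyp11a1, Cyp17a1 and Hsd3b1 in each library by strain and diet, with the mean as a line, 1 SD as a bar, and shapes for the 3 runs of title numbers. The C57BL/6J libraries on 44% fat lie below those on 10% fat for Cyp11a1, the CAST/EiJ libraries on 44% fat lie above those on 10% fat for Hsd3b1, and the diets overlap elsewhere.

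Leydig cell markers gave a median of −0.048 over 15 tested genes, with −0.096 for C57BL/6J, −0.058 for CAST/EiJ and 0.026 for NZO/HlLtJ, and 3 of 15 were below 0 in each strain (20%, beside 11.6%). Their summed level ran from 1054 to 1128 CPM on 10% fat and from 881 to 1061 CPM on 44% fat in C57BL/6J, from 861 to 987 against 785 to 928 CPM in CAST/EiJ, and from 1681 to 2343 against 1748 to 2064 CPM in NZO/HlLtJ. The list shares genes with steroid synthesis, and its part in the values above was not tested. Within the 3 runs, Cyp17a1 had 0.076, −0.61 and −0.35, and Cyp11a1 had 0.074, −0.43 and −0.36, so neither was below 0 in run 1. Run 2, with the largest of these differences, held 1 C57BL/6J library on each diet. It held 1 CAST/EiJ library on 10% fat and 2 on 44% fat, and 0 NZO/HlLtJ libraries on 10% fat.

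Fatty acid genes were mixed apart from 3 neighbours. Of 20 tested genes of fatty acid synthesis and desaturation, 5 were below 0 in each strain (25%, beside 11.6%) and 3 above (15%, beside 10.2%), with a median of −0.035, and −0.021 without replicate 3 of CAST/EiJ on 10% fat. The 3 with an unadjusted p under 0.05 (15%, beside 1.91%) were Fads1, Fads2 and Fads3, at −0.21, −0.21 and −0.22. Fads1 and Fads2 encode the desaturases that make long polyunsaturated fatty acids such as arachidonic and docosahexaenoic acid, of which germ cells hold much. The 3 genes lie side by side on chromosome 19, Fads3 at 10041548-10059671, Fads2 at 10064164-10101503 and Fads1 at 10182888-10196870. Fads1 stood at 79.9, 89.2, 87.1 and 73.2 CPM on 10% fat and 71, 55.3, 71 and 76.3 CPM on 44% fat in C57BL/6J, and the diets overlapped there as in CAST/EiJ and NZO/HlLtJ. Within run 1 Fads1 had 0.12 and Fads2 0.14, against −0.42 and −0.44 in run 2, while Fads3 was below 0 in each run. Fasn, the fatty acid synthase, had 0.053, and Scd1, the stearoyl-CoA desaturase, −0.12 with a sign that differed between strains.

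Genes of the ribosome and the respiratory chain also leaned to 1 side. Of 38 ribosomal protein genes, 20 were below 0 in each strain (52.6%, beside 11.6%), 0 above, and 6 were lower at an unadjusted p under 0.05 (15.8%, beside 1.91%), with a median of −0.056. Of 40 nuclear genes of oxidative phosphorylation, 14 were below 0 in each strain (35%), 0 above, and 7 lower at that p (17.5%), with a median of −0.048. Cox6c, a subunit of cytochrome c oxidase, had −0.14 (SE 0.04), and Cox7a2 (−0.12), Cox6b1 (−0.14) and Cox5a (−0.08) are subunits of the same complex. The medians by strain were −0.053, −0.014 and −0.10 for ribosomal proteins and −0.045, 0.0079 and −0.10 for the respiratory chain, in the order C57BL/6J, CAST/EiJ and NZO/HlLtJ. Within the 3 runs of title numbers the medians were −0.042, −0.064 and 0.024 for ribosomal proteins and −0.017, −0.064 and −0.0009 for the respiratory chain, so both were near or above 0 in run 3. The 13 transcripts encoded in the mitochondrion had a median of 0.005.

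The diet difference went with gene length mainly in NZO/HlLtJ. Length here is all bases covered by any annotated exon of the gene, so it can exceed that of a single transcript. Genes of the ribosomal and respiratory lists are short, with median lengths of 1800 and 1950 bases against 3871 over 17206 matched genes. The cholesterol genes had a median of 4409. Across genes the diet difference had a Spearman correlation with length of 0.21 over all strains, of 0.05 for C57BL/6J, −0.08 for CAST/EiJ and 0.32 for NZO/HlLtJ. In NZO/HlLtJ the median was −0.06 for genes of 151 to 1887 bases and 0.05 for those of 7041 bases or more. For each NZO/HlLtJ library, log2 CPM less the strain's mean was also correlated with length. The values were −0.04, 0.05, −0.35 and −0.11 on 10% fat and 0.04, 0.12, 0.25 and 0.10 on 44% fat. The lowest library (replicate 3 on 10% fat) is in run 3 and the highest (replicate 3 on 44% fat) in run 2. The part of length in the values of the ribosomal and respiratory lists was not tested.

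**Figure D5:**
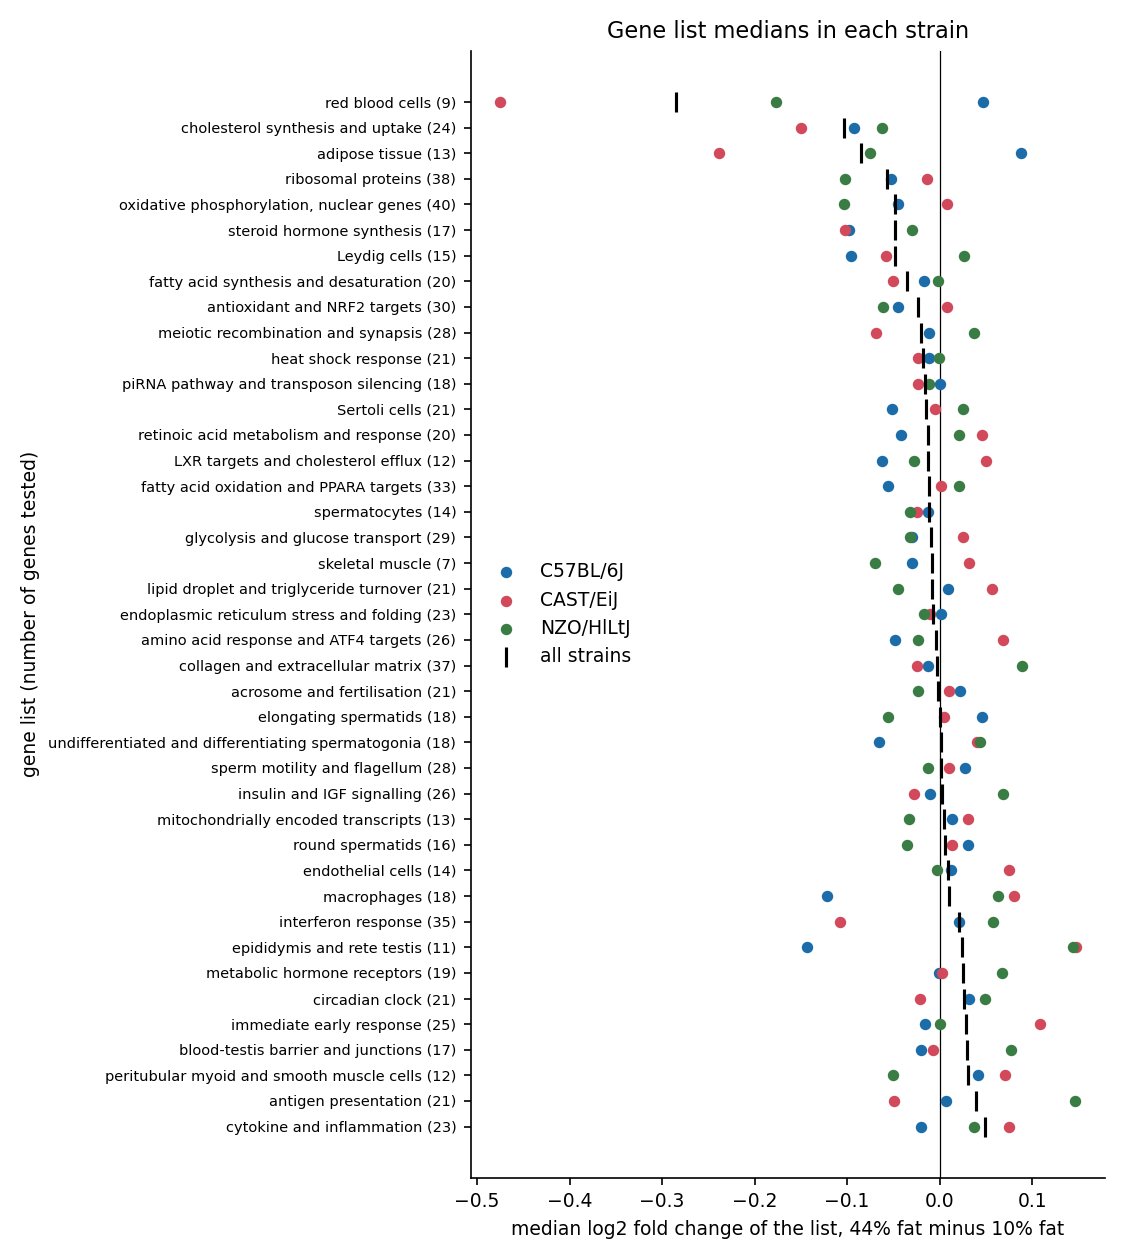
Median diet difference (log2, 44% fat minus 10% fat) of the tested genes of each list, with a point for each strain and a black tick for all strains. The cholesterol list lies at −0.093, −0.15 and −0.062, and most other lists have strain medians on both sides of 0.

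Among the other named genes, chosen for the smallest p with 1 sign in each strain, Fam205a3 and Fam205a2 had the largest difference of the higher group, 0.39 (SE 0.09). They are near-identical copies on chromosome 4 with the same counts in each library, so they are 1 measurement. In C57BL/6J Fam205a3 stood at 9.31, 10.7, 9.85 and 7.9 CPM on 10% fat and 18.8, 19.5, 12.7 and 16 CPM on 44% fat, with no overlap. There it rose by 0.82 on the log2 scale and passed the test within that strain (edgeR adjusted p 0.0283), 1 of 2 genes called higher in C57BL/6J (0.00874% of genes), the other being Fam205a2. In CAST/EiJ and NZO/HlLtJ its difference was 0.18 in each, and the diets overlapped. The call within C57BL/6J was lost when any 1 of 6 of its 8 libraries was left out, and when CAST/EiJ was left out.

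The remaining higher genes differed by less. Sntb2, a syntrophin that binds the dystrophin complex, had 0.095 (SE 0.03), with the diets apart in C57BL/6J and NZO/HlLtJ and overlapping in CAST/EiJ. Pnrc1, a nuclear receptor coactivator, had 0.12 and the same pattern of overlap. The transcription factors Casz1 and Klf11 had 0.11 and 0.19, Lama1, a laminin of basement membranes, 0.13, Crtc2, a coactivator of CREB, 0.13, and the lectin Clec4g 0.15. Each had an adjusted p close to 1 in edgeR, as did the lower genes that follow.

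Dio1, the deiodinase that turns thyroxine into its active form, had the largest difference of the lower named genes, −0.55 (SE 0.15), at low counts. It stood at 0.837, 1.29, 1.93 and 1.06 CPM on 10% fat and 0.384, 0.936, 0.708 and 0.522 CPM on 44% fat in C57BL/6J, where its difference was −1.01, and had −0.31 in CAST/EiJ and −0.41 in NZO/HlLtJ. The diets overlapped in each strain, in C57BL/6J and CAST/EiJ through a single library. Mrpl33, of the mitochondrial ribosome, had −0.14, Ccdc12 −0.14, the zinc finger gene Zfp101 −0.30, the kinase Pim2 −0.25 and Polr2g, a subunit of RNA polymerase II, −0.14.

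Gm44280 had the smallest p of all genes and was named after its values were seen, since the naming rule leaves out predicted genes. It is annotated as still to be experimentally checked, lies at 113416472-113419582 on the plus strand of chromosome 6, and overlaps Rpusd3 on the opposite strand. Its level was 1.44, 1.53, 1.25 and 1.84 CPM on 10% fat and 1.73, 1.96, 2.01 and 2.09 CPM on 44% fat in C57BL/6J, and 0.959, 0.94 and 1.32 CPM against 1.22, 1.6, 2.16 and 1.51 CPM in CAST/EiJ. In NZO/HlLtJ it was 1.24, 1.13, 1.1 and 1.2 CPM against 2.08, 1.96, 1.6 and 1.95 CPM. The diets were apart in NZO/HlLtJ and overlapped in the other strains. The difference was 0.55 (SE 0.10, unadjusted p 1.31e-05, adjusted p 0.299 in edgeR), and it was the 1 gene of 22873 (0.00437%) with an unadjusted p under 0.05 in each strain in 1 direction. Rpusd3 had −0.05 (SE 0.06). The sources do not state whether counting used strand, so reads of the pair may not be told apart.

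A few genes differed in 1 strain or in opposite ways. Within single strains an unadjusted p under 0.05 was found for 670 genes in C57BL/6J (2.93%) and 1555 in NZO/HlLtJ (6.8%). Slc38a2, a transporter of neutral amino acids, was the 1 gene called in NZO/HlLtJ (0.00437%): it rose from 45.1, 53.2, 43.3 and 48.8 CPM to 66.8, 66.1, 57.9 and 82.1 CPM, a log2 difference of 0.52 (edgeR adjusted p 0.0363), and had −0.0035 in C57BL/6J and −0.069 in CAST/EiJ. The call was lost without any 1 of 11 of the 23 libraries, among them NZO/HlLtJ replicates 1 and 3 on 10% fat and 1, 2 and 4 on 44% fat. It was also lost without CAST/EiJ and with the run of title numbers as a covariate, over which the NZO/HlLtJ diets are not balanced. Pakap, which yields a protein that anchors protein kinase A, had −0.50 for C57BL/6J, 0.37 for CAST/EiJ and 0.77 for NZO/HlLtJ. The diets were apart in opposite directions in C57BL/6J and NZO/HlLtJ, and it had the smallest p for strain by diet (adjusted p 0.314 in edgeR). The next by that p were Slc38a2, Sgsm3, Eno1b and Zc3h12b. CAST/EiJ had 0 called genes in edgeR, with 941 at an unadjusted p under 0.05 (4.11%), and DESeq2 called 3 and limma 1 there.

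Markers of germ cells and Sertoli cells had medians close to 0. All 18 tested markers of elongating spermatids were mixed in sign, with a median of 0.00045, and round spermatids had 0.006 and spermatogonia 0.0011. Spermatocytes had −0.011, with a median below 0 in every strain and 4 of 14 genes below 0 in each (28.6%, beside 11.6%), and Sertoli cells had −0.015, with 5 of 21 below 0 in each (23.8%). Markers of these 5 cell types were detected, and the labelled tissue is testis. Of 41 lists, 7 had a median below 0 in every strain and 0 had a median above 0 in every strain. Total estimated counts ran from 21.9 to 78.7 M a library (1 M is 1000000 counts), with a median of 34.4 M on 10% fat and 35.6 M on 44% fat. The first 2 principal components held 57.7% and 22.4% of the variance and separated the strains. Nnt, in which C57BL/6J carries a deletion, had a difference of −0.00367, and gene-level counts that include exons outside the deletion do not check the strain labels. Markers of epididymis summed to 151.7 CPM in the second CAST/EiJ library on 44% fat, against 64.6 CPM or less in the others.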

How the data were processed

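Testis polyA RNA was sequenced as 100 bp paired reads per the labels' protocols, with KAPA mRNA HyperPrep libraries and a stated depth target. The authors deposited estimated counts per gene, rounded here to whole numbers, and a table of log2 variance-stabilised values. The submitters' processing notes name GRCm38 and DESeq2. The aligner, the counter and the use of strand were not given in the sources used here. Genes were filtered with filterByExpr over the 6 groups, leaving 22873 of 28861, and tested with edgeR 4.0.16 (TMM, quasi-likelihood, strain + diet) in R 4.3.3, with Benjamini-Hochberg adjustment at 0.05. A model of 1 mean per group gave each strain's difference and the strain by diet test. Depth was 21.9 to 78.7 M (1 M is 1000000) counts a library, and precision is given as SEs. Alternatives used DESeq2 1.42.0, limma 3.58.1, other scalings and filters, title-number runs and left-out libraries or strains. The steps were tested on simulated counts. Levels are TMM-scaled CPM, and log2 CPM used a prior count of 2.

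Named genes were, among official symbols with a mean of at least 1 CPM, the 10 per direction with the smallest p and 1 sign in each strain, those with an unadjusted p under 0.05 or with diets apart in each strain (none), 5 by the strain by diet test, Nnt, Star, Cyp17a1 and Insl3. Others were taken from the lists after their values were seen. The members and lists were chosen with earlier results of these data known. Some members of the lists are counted in the totals and not reported by name.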

Additional observations from a re-analysis of the deposited data

Results flagged for a closer look

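In each group of 4 libraries, a value was picked out where 1 library stood far from the other 3, its gap to the nearest taking a larger share of the group's whole range than Dixon's 95% critical value. Of 430 groups looked at over the named genes, the mean levels of lists and the marker sums, 26 were picked out, and chance picks out about 1 in 20. No explanation was weighed.

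Among the sterol genes on 44% fat, Cyp51 stood at 107.2 CPM in the third C57BL/6J library, against 97.17 to 98.69 CPM in the others, and Mvk at 5.545 CPM there, against 7.018 to 7.283 CPM. Tm7sf2 stood at 5.397 CPM in the fourth C57BL/6J library, above 4.269 to 4.395 CPM. Lss at 15.32 CPM was the lowest and Mvk at 6.806 CPM the highest of CAST/EiJ in its first library, and Msmo1 at 43.61 CPM was the lowest of NZO/HlLtJ in its first. On 10% fat in C57BL/6J, Hsd17b7 stood at 8.959 CPM in the third library, above 7.559 to 7.625 CPM, and Nsdhl at 9.416 CPM in the fourth, below 11.13 to 11.3 CPM. These are 4 different groups, and no single library carried all of the values.

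In the steroid group, the fourth NZO/HlLtJ library on 10% fat was highest for Insl3 at 240.5 CPM, against 133.3 to 141.9 CPM, and for Hsd3b1 at 353.9 CPM, against 280.8 to 286.4 CPM. Hsd3b6 at 58.57 CPM was low in the fourth C57BL/6J library on 10% fat, and Scarb1 at 103.3 CPM was low in the second on 44% fat. That same library was lowest for Fads2, at 67.55 CPM against 92.89 to 97.14 CPM. Fads3 at 2.986 CPM was low in the fourth C57BL/6J library on 10% fat, and Scd1 at 51.85 CPM was high in the second CAST/EiJ library on 44% fat, against 17.42 to 20.4 CPM. Angptl4 at 6.062 CPM was high in the third CAST/EiJ library on 44% fat, against 3.755 to 3.879 CPM.

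The other genes were Crtc2 at 15.75 CPM in the third and Lama1 at 21.5 CPM in the fourth C57BL/6J library on 10% fat, Ccdc12 at 22.27 CPM in the first and Eno1b at 4.585 CPM in the third NZO/HlLtJ library on 10% fat, Pakap at 7.614 CPM in the second NZO/HlLtJ library on 44% fat, and Fam205a2 and Fam205a3, both at 15.52 CPM, in the first CAST/EiJ library on 44% fat. Markers of epididymis summed to 151.7 CPM in the second CAST/EiJ library on 44% fat, against 34.66 to 43.68 CPM, with Crisp1, a sperm-coating protein of the epididymis, at 99.02 CPM, and to 64.59 CPM in the second C57BL/6J library on 10% fat. Markers of skeletal muscle summed to 20.46 CPM in the fourth C57BL/6J library on 44% fat, against 21.84 to 22.03 CPM.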

How the results depend on the processing

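No paired analysis was possible because the titles give no replicate numbers and replicates were numbered in accession order. Over 38 other ways of processing, 23 of which left out 1 library each, 2431 values of 64 named genes gave 1 past the threshold (Cyp17a1 in run 2) and 58 with a changed sign, in 28 genes. Depth limits the low genes most, such as Dio1 and Gm44280, and the cause of the changes below was not tested.

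Over all strains, leaving out 1 library gave 0 to 1 genes called higher (Gm13232, without the second C57BL/6J library on 10% fat). Run 2 gave 3 higher and 2 lower, and run 3 gave 1963 at an unadjusted p under 0.05. Strain by diet called 8 with DESeq2 (Pakap, adjusted p 0.00517, and Slc38a2, 0.0203, among them), 1 without the fourth C57BL/6J and NZO/HlLtJ libraries on 10% fat and the third NZO/HlLtJ library on 44% fat (3 libraries that an earlier look set apart), 1 without C57BL/6J, 1 without CAST/EiJ (Pakap, adjusted p 0.0287 in edgeR), and 0 to 1 with 1 library left out (C4b, without the fourth NZO/HlLtJ library on 10% fat). Calls within C57BL/6J were 0 without those 3 libraries, 0 without CAST/EiJ and 0 to 2 with 1 library left out. Within CAST/EiJ they were 3 with DESeq2, 1 with limma and 0 to 3 with 1 left out. Within NZO/HlLtJ they were 7 with DESeq2, 2 with no filter, 0 with run as a covariate, 4 without the 3 libraries, 2 without C57BL/6J, 0 without CAST/EiJ and 0 to 5 with 1 left out.

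Cholesterol genes lower at an unadjusted p under 0.05 numbered 6 with run as a covariate, 0 and 5 within runs 1 and 2, 5 without C57BL/6J, 7 without CAST/EiJ and 6 to 15 with 1 library left out. List medians within run 1 were 0.0229 for cholesterol, 0.0772 for steroid and 0.0378 for fatty acid synthesis, and the last was −0.145 in run 3.

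Signs changed mostly within run 1: Cyp17a1 0.076, Cyp11a1 0.0742, Star 0.431, Insl3 0.11, Lhcgr 0.104, Hsd17b3 0.108, Scarb1 0.0718, Fads1 0.122, Fads2 0.14, Dhcr7 0.0454, Msmo1 0.0644, Hmgcs1 0.0189, Hsd17b7 0.0815, Sqle 0.0216, Insig1 0.0242, Srebf2 0.106, Fdft1 0.0324, Mvk 0.184, Mvd 0.00895, Tm7sf2 0.00707, Nsdhl 0.0991 and Stard4 0.0951. Within run 2 they were Hsd3b6 0.0138, Lhcgr 0.103, Nr5a1 −0.0283, Fasn −0.0187 and Pmvk −0.0524, and within run 3 Il1r1 −0.0692 and Mvd 0.0123. Insl3, near 0, was 0.000363 with upper quartile scaling, 0.00841 with limma, 0.000269 for genes of at least 1 CPM, 0.0213 without the 3 libraries, 0.0227 without C57BL/6J and 0.0687 without CAST/EiJ. Stard4 was 0.00562 without C57BL/6J, and without CAST/EiJ Stard4 was 0.00659, Scd1 0.0291 and Srebf2 0.0119. With 1 library left out, Insl3 ran from −0.065 to 0.0652, Pmvk from −0.0115 to 0.0333 and Srebf2 from −0.0292 to 0.00681.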

Other observations

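Some inflammation genes stood higher without passing the test. Of 23 tested cytokine and inflammation genes, 7 were above 0 in each strain (30.4%, beside 10.2% of all genes) and 4 below (17.4%, beside 11.6%), and 3 were higher at an unadjusted p under 0.05 (13%, beside 1.48%). The list's median was 0.049, with −0.02 for C57BL/6J, 0.075 for CAST/EiJ and 0.037 for NZO/HlLtJ, so the strains did not share a side. Il1r1, the interleukin 1 receptor, had 0.18, Socs3, which damps cytokine signalling, 0.30, and Nfkb1, a subunit of NF-kappa B, 0.088. Il1r1 stood at 24.9, 27.9, 16.4 and 31.7 CPM on 10% fat and 31.3, 27.6, 35.7 and 33 CPM on 44% fat in NZO/HlLtJ, and the diets overlapped there and in the other strains. It had 0.11 without replicate 3 of NZO/HlLtJ on 10% fat. Macrophage markers had a median of 0.01, with −0.12 for C57BL/6J, 0.08 for CAST/EiJ and 0.063 for NZO/HlLtJ.

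Single genes of lipid handling outside the sterol route, chosen after their values were seen, had an unadjusted p under 0.05 and 1 sign in each strain. Angptl4, an inhibitor of lipoprotein lipase that is raised by fatty acids through PPAR receptors, had 0.26 (SE 0.10), with 2.82, 2.57 and 3.72 CPM on 10% fat and 3.75, 3.88, 6.06 and 3.86 CPM on 44% fat in CAST/EiJ, where the diets were apart. Mylip, a ubiquitin ligase that is induced by sterol-sensing LXR, had 0.26 (SE 0.11). Irs2, an insulin receptor substrate, had 0.10 (SE 0.05). By sign, the lists they belong to were near the background: of 33 tested genes of fatty acid oxidation and PPARA targets, 3 were above 0 in each strain (9.09%, beside 10.2%) and 4 below (12.1%, beside 11.6%), and 1 of 12 LXR targets (8.33%) and 2 of 26 genes of insulin and IGF signalling (7.69%) were above 0 in each. At an unadjusted p under 0.05, 2, 1 and 2 genes of these lists were higher (6.06%, 8.33% and 7.69%, beside 1.48%), the named ones included.

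Red blood cell genes had the lowest list median, −0.28 over 9 tested genes, with 0.047 for C57BL/6J, −0.48 for CAST/EiJ and −0.18 for NZO/HlLtJ. Alas2, the heme synthesis enzyme of red cell precursors, had −0.10.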
